A study of Arabidopsis thaliana with 8 samples.

Results

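The type-A Arabidopsis response regulators (ARRs) form a family of 10 genes, ARR3 to ARR9 and ARR15 to ARR17, and their transcripts were compared between 35S:MYB87-SRDX and wild-type Arabidopsis seedlings. They were identified by locus among the 25665 loci on the array, where each has 1 probe. Total RNA from whole 2-week-old Columbia-0 seedlings was hybridised to 8 one-colour (Cy3) Agilent arrays, 4 per group, and per the labels each sample pooled 5 seedlings of the T2 generation. The transgenic group carried MYB87, an R2R3-type MYB transcription factor, fused to the SRDX repressor motif under the 35S promoter, which is active in most plant tissues. Those seedlings grew on MS medium with hygromycin, whereas the wild-type seedlings grew without it. All had 1% sucrose, 16 h light, 8 h dark and 23 °C. The labels give neither the number of transgenic lines nor whether the samples of a group came from separate plates. The p-values therefore reflect the spread among these samples alone, part of which may be technical. No group carried MYB87 without SRDX.

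Cytokinin signals through a phosphorelay. The hormone binds receptor histidine kinases at the endoplasmic reticulum and plasma membrane, phosphate passes through histidine phosphotransfer proteins (AHPs) to the nucleus, and there it activates type-B ARRs, which are DNA-binding transcription factors. Type-A ARRs consist of little more than the receiver domain that accepts phosphate. Type-B ARRs switch many of them on within minutes of cytokinin addition, and type-A ARRs act back on the pathway as negative regulators. Transcripts of the rapidly induced members are widely used as a readout of cytokinin response. The family falls into related pairs, namely ARR3 with ARR4, ARR5 with ARR6, ARR7 with ARR15, ARR8 with ARR9, and ARR16 with ARR17. In the RefSeq gene table all 10 loci are named, but AT2G41310, called ARR8 here, has the main symbol RR3 there, so loci rather than symbols identify the genes.

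The groups were hybridised on separate slides, 1 per group, so slide, medium and genotype cannot be told apart in any comparison. The MYB87 probe (AT4G37780) checked the labels. Its log2 signal relative to the array's 75th percentile was -5.48, -7.20, -7.44 and -7.08 in wild type and 5.75, 5.52, 5.58 and 2.53 in MYB87-SRDX, replicates 1 to 4. The groups were far apart, and MYB87-SRDX replicate 4 carried less of the transcript than the others. All 7 leaf mesophyll and all 7 root hair marker genes passed the filter on dim probes, so leaf and root RNA were both present. CLV3 and WUS, which mark the centre of the shoot meristem, were not well above background on any array. The 75th percentile of the signal lay between 1539 and 2055 on the 8 arrays, and their number limits the precision.

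Of the 10 type-A ARR genes, 9 were well above background on all 8 arrays and were tested. ARR8, ARR6 and ARR9 fell in MYB87-SRDX, by 1.82-fold, 1.81-fold and 1.55-fold, at an adjusted p below 0.05 by limma (Benjamini-Hochberg over 20334 loci). None of the 9 rose. At an unadjusted p below 0.05, 4 of the 9 were lower (44.4%) and none higher, against 19% of all loci lower and 22.2% higher. ARR3, ARR4, ARR5, ARR7, ARR15 and ARR16 did not pass the threshold, and ARR17 was not measurable. The 3 lower members are 33.3% of those tested, whereas 12.5% of all loci tested were lower and 14.9% higher, 27.4% in either direction. The same 3 were the members whose groups did not overlap, all with MYB87-SRDX below, against 13.1% of all loci below, 17.6% above and 30.8% in either direction. The median log2 difference, MYB87-SRDX minus wild type, was -0.39 over the 9 members and 0.011 over all loci tested. The members' median was -0.49 with quantile scaling, -0.29 with median scaling and -0.27 with normexp background correction. With normexp the log2 differences of ARR8, ARR6 and ARR9 were -0.62, -0.58 and -0.59, against -0.86, -0.86 and -0.63 as reported. Of these 3 calls, that of ARR8 alone held in all 19 alternative settings, and 1 member was lower without any one of wild type replicates 1, 2 and 3 or MYB87-SRDX replicates 2 and 4. In these whole seedlings fewer cells of a type and less RNA per cell cannot be told apart.

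**Figure D1:**
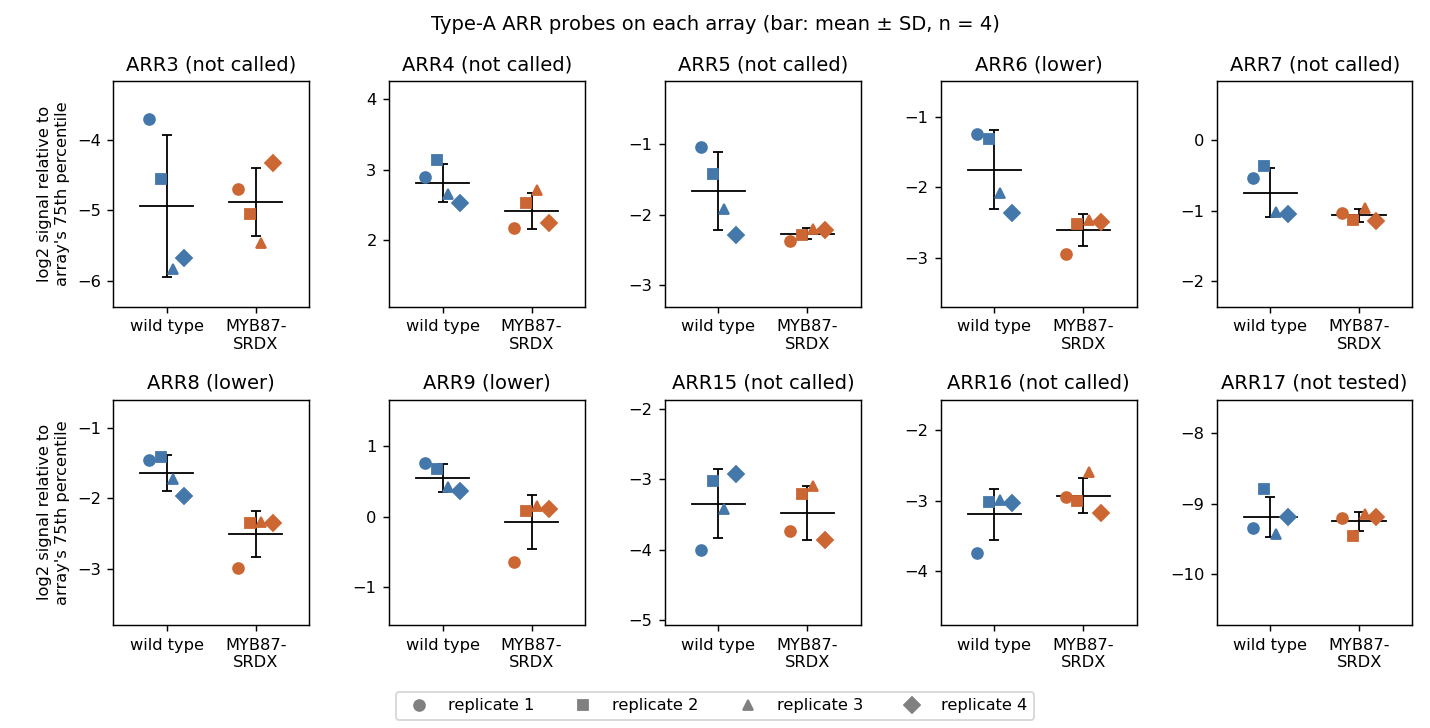
Each panel shows 1 type-A ARR probe, with the log2 signal relative to the array's 75th percentile on the y axis and the 2 groups on the x axis. Points are arrays (marker shape gives the replicate number), bars are mean ± SD (n = 4), and every panel spans the same range of log2 units. ARR6, ARR8 and ARR9 have groups that do not overlap, and ARR17 lies at background in both.

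ARR8 and ARR9 are a related pair known from loss-of-function studies to restrain cytokinin responses redundantly with other members. The log2 signal of ARR8 (AT2G41310) was -1.46, -1.41, -1.73 and -1.97 in wild type and -2.99, -2.35, -2.34 and -2.35 in MYB87-SRDX. Every MYB87-SRDX array lay below every wild-type array, and replicates 2 to 4 were nearly identical while replicate 1 was lower. The means were -1.64 ± 0.26 (SD, n = 4) in wild type and -2.51 ± 0.32 (SD, n = 4) in MYB87-SRDX, and the log2 difference was -0.86 ± 0.18 (SE) with a limma adjusted p of 0.0134. Without MYB87-SRDX replicate 1 the log2 difference was -0.70 and the adjusted p 0.0217, so the call held without that array.

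ARR9 (AT3G57040) had log2 signals of 0.77, 0.68, 0.42 and 0.36 in wild type and -0.64, 0.08, 0.16 and 0.11 in MYB87-SRDX. Here too the groups did not overlap and MYB87-SRDX replicate 1 was the lowest array. The log2 difference was -0.63 ± 0.19 (SE), from means of 0.56 ± 0.20 (SD, n = 4) and -0.07 ± 0.38 (SD, n = 4), with a limma adjusted p of 0.0424. Without MYB87-SRDX replicate 1 it was -0.44 with an adjusted p of 0.0448. The call was lost without wild type replicate 1, 2 or 3 or MYB87-SRDX replicate 2 or 4, where the difference stayed between -0.56 and -0.69 and the adjusted p between 0.059 and 0.107. Median scaling (limma adjusted p 0.0572), no filter on dim probes (0.061) and the replicate block (0.104) also lost the ARR9 call.

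ARR5 and ARR6 are primary cytokinin response genes, and the ARR5 promoter is a common cytokinin reporter. The log2 signal of ARR6 (AT5G62920) was -1.24, -1.32, -2.08 and -2.37 in wild type and -2.95, -2.52, -2.47 and -2.49 in MYB87-SRDX. The groups did not overlap, but wild type replicates 3 and 4 lay close to the MYB87-SRDX arrays. The log2 difference was -0.86 ± 0.27 (SE), from means of -1.75 ± 0.56 (SD, n = 4) and -2.61 ± 0.23 (SD, n = 4), with a limma adjusted p of 0.0458. This call was lost without any one of the 8 arrays except wild type replicate 4, with log2 differences from -0.69 to -0.97 and adjusted p values from 0.0544 to 0.118. The ARR6 call was also lost with quantile scaling (limma adjusted p 0.0565), normexp (0.0571), no filter on dim probes (0.0654) and the replicate block (0.0989). ARR6 shares its size of fall with ARR8, but the wild-type spread behind it was wider.

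ARR5 (AT3G48100) had log2 signals of -1.03, -1.42, -1.92 and -2.29 in wild type and -2.37, -2.28, -2.20 and -2.21 in MYB87-SRDX. The transgenic arrays were nearly alike, whereas the wild-type arrays spread down into the range of MYB87-SRDX. The log2 difference was -0.60 ± 0.25 (SE) with a limma adjusted p of 0.104, and its 95% interval ran from -1.17 to -0.03. Without wild type replicate 4, the lowest wild-type array, it was -0.81 with an adjusted p of 0.0248, and without wild type replicate 1, the highest, it was -0.39 with 0.153.

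ARR7 (AT1G19050) and ARR15 (AT1G74890) are known as regulators of the shoot stem cell niche. The log2 signal of ARR7 was -0.53, -0.37, -1.02 and -1.05 in wild type and -1.03, -1.13, -0.96 and -1.15 in MYB87-SRDX. Only wild type replicates 1 and 2 lay above the MYB87-SRDX arrays. The log2 difference was -0.33 ± 0.16 (SE), with a limma adjusted p of 0.164 and a 95% interval from -0.70 to 0.04, and it was -0.20 without wild type replicate 2. The log2 signal of ARR15 was -4.01, -3.02, -3.43 and -2.93 in wild type and -3.73, -3.21, -3.10 and -3.87 in MYB87-SRDX. The groups overlapped over nearly their whole range. The log2 difference of ARR15 was -0.13 ± 0.27 (SE), with a limma adjusted p of 0.759. Its 95% interval ran from -0.76 to 0.50, so the direction of any change stays undecided.

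ARR3 and ARR4 belong to the members that also act on the circadian period, and ARR4 binds the light receptor phytochrome B. ARR4 (AT1G10470) had log2 signals of 2.90, 3.14, 2.66 and 2.53 in wild type and 2.18, 2.53, 2.72 and 2.24 in MYB87-SRDX. The lower MYB87-SRDX arrays lay below wild type and the others within its range. The log2 difference was -0.39 ± 0.17 (SE), with a limma adjusted p of 0.121 and a 95% interval from -0.77 to 0.00, and it was -0.19 with normexp. The log2 signal of ARR3 (AT1G59940) was -3.70, -4.55, -5.83 and -5.67 in wild type and -4.70, -5.05, -5.46 and -4.33 in MYB87-SRDX. ARR3 varied more among wild-type arrays than any other tested member, with an SD of 1.00. ARR3 differed by 0.05 ± 0.48 (SE) on the log2 scale, for which limma gave an adjusted p of 0.944 and a 95% interval from -1.06 to 1.17, the widest of the family.

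ARR16 is known from roots, where cytokinin induces it, and in the stomatal lineage. ARR16 (AT2G40670) had log2 signals of -3.74, -3.02, -2.99 and -3.03 in wild type and -2.95, -3.00, -2.59 and -3.17 in MYB87-SRDX. Wild type replicate 1 was low, and the other arrays of both groups overlapped. Its log2 difference was 0.27 ± 0.20 (SE), with a limma adjusted p of 0.33 and a 95% interval from -0.18 to 0.72. It kept a positive difference in all 19 alternatives, from 0.09 to 0.39, and none passed the threshold. ARR17 (AT3G56380) lay between -9.43 and -8.79 in wild type and between -9.45 and -9.15 in MYB87-SRDX. It was not well above background on any of the 8 arrays, so it has no measured difference, and the 9 members tested are not the whole family.

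**Figure D2:**
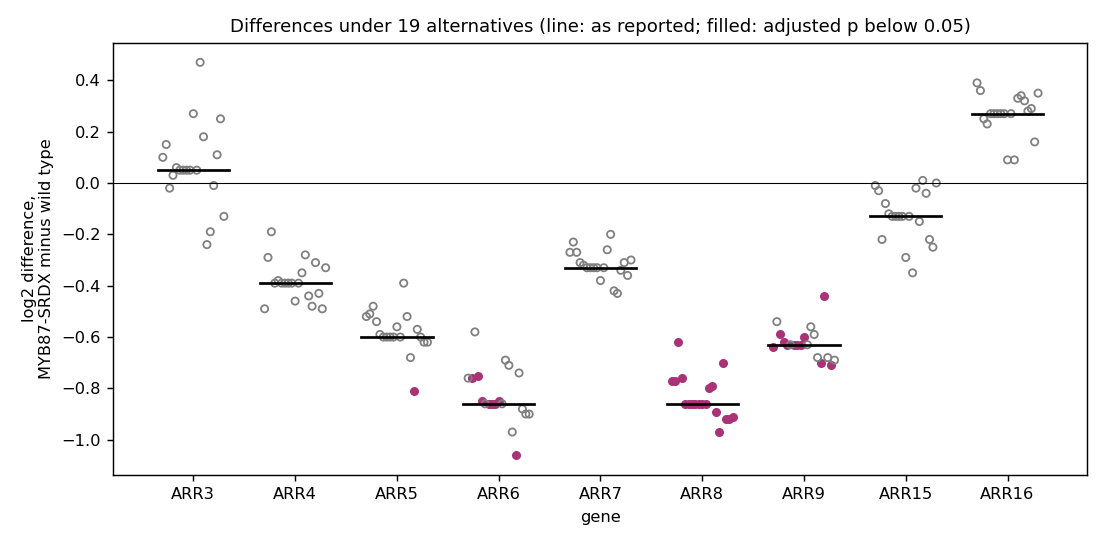
The y axis gives the log2 difference, MYB87-SRDX minus wild type, for each of the 9 tested type-A ARR genes. The black line is the value reported, and the points are 19 alternative settings, filled where the limma adjusted p was below 0.05. ARR8 is filled throughout, ARR9 and ARR6 in 11 and 8 of the alternatives, and ARR5 in 1.

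Within the related pairs, the ratio of the members on each array asks whether both changed by the same factor. The log2 ratio of ARR8 to ARR9 was -2.20 ± 0.10 (SD, n = 4) in wild type and -2.44 ± 0.06 (SD, n = 4) in MYB87-SRDX, a change of -0.23. For ARR5 to ARR6 it was 0.09 ± 0.14 (SD, n = 4) and 0.34 ± 0.16 (SD, n = 4), a change of 0.26. Each of these ratios was separated without overlap, with an exact two-sided permutation p of 0.0286, the smallest that 70 splits of 8 arrays allow. Adjusted by Benjamini-Hochberg over the 4 pairs tested both exact p values became 0.0571, which is the lowest that 2 fully separated pairs among 4 can reach. With 2 separated pairs among 4, this permutation test could not pass the threshold, so it decides nothing on these 2 ratios. The ratios of ARR3 to ARR4 and ARR7 to ARR15 changed by 0.44 and -0.20, with exact p values of 0.371 and 0.657. ARR16 and ARR17 could not be compared, because ARR17 was at background.

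Within the groups some members varied together and others in opposite directions. The deviations of ARR8 and ARR9 from their group means had a Pearson r of 0.96 over the 8 arrays, and those of ARR5 and ARR6 had 0.94. The 21 pairs among ARR3 to ARR9 all had a positive r, from 0.20 to 0.96. ARR15 and ARR16 had 0.83 with each other, but all 10 negative values among the 36 pairs were of one of them with another member, such as -0.84 for ARR3 with ARR16 and -0.61 for ARR5 with ARR16. The related pairs ARR3 and ARR4, and ARR7 and ARR15, had 0.20 and -0.10. These are descriptions over 8 arrays that share their RNA and scaling. The SD was larger in wild type than in MYB87-SRDX for 7 of the 9 members, or 77.8%, against 58.6% of all loci tested. The exceptions were ARR8 and ARR9, where MYB87-SRDX replicate 1 stood apart.

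Tissue markers moved over the same arrays. As a mean log2 deviation from the 8-array average, 7 root hair markers stood at 1.09, 0.48, -0.83 and -0.39 in wild type replicates 1 to 4 and between -0.44 and 0.17 in MYB87-SRDX. Of the 9 tested members 7, all but ARR15 and ARR16, were likewise higher in wild type replicates 1 and 2 than in replicates 3 and 4. No root hair marker passed the limma test between the groups, at an adjusted or an unadjusted p below 0.05. Their summed signal, in units of the array's 75th percentile, ran from 0.684 to 2.77 in wild type and from 0.777 to 1.3 in MYB87-SRDX. In the list named root tip and endodermis, 1 gene of 6 was lower (16.7%, against 12.5% of all loci), SHR, and the other 5 did not pass. The SHR call was lost with median scaling (-0.32, adjusted p 0.0785 by limma). It is a call of SHR alone and is not read as a change of those tissues. The list's summed signal was 5.80 to 8.34 in wild type and 4.18 to 7.03 in MYB87-SRDX.

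The vascular markers separated the groups. All 7 xylem markers and all 6 phloem markers fell, against 12.5% of all loci. Their median log2 differences were -1.04 and -0.66. The summed signal of the xylem markers was 8.67 to 13.6 in wild type and 4.35 to 5.51 in MYB87-SRDX, and that of the phloem markers was 16.6 to 21.0 and 9.28 to 12.9. Shoot meristem markers had 3 of 7 tested higher (42.9%, against 14.9% of all loci) and none called lower. STM, a homeobox gene that maintains the meristem, was up 3.27-fold, and CUC1, a boundary gene, was up 2.15-fold. The third, KNAT2, lost its call in 12 of 19 alternatives, each omission of 1 array among them, and CUC1 had a log2 difference of 0.61 with normexp and 0.70 with an added offset against 1.10. Of the 7 meristem markers, 3 had negative differences (42.9%, against 48.5% of all loci), none past the threshold. The summed meristem signal was 0.946 to 1.18 in wild type and 1.20 to 1.56 in MYB87-SRDX. The leaf mesophyll markers had 1 higher and 1 lower of 7 (14.3% each, against 14.9% and 12.5% of all loci). Their summed signals were 426 to 591 in wild type and 471 to 570 in MYB87-SRDX. The part of these tissues in the ARR differences was not tested.

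**Figure D3:**
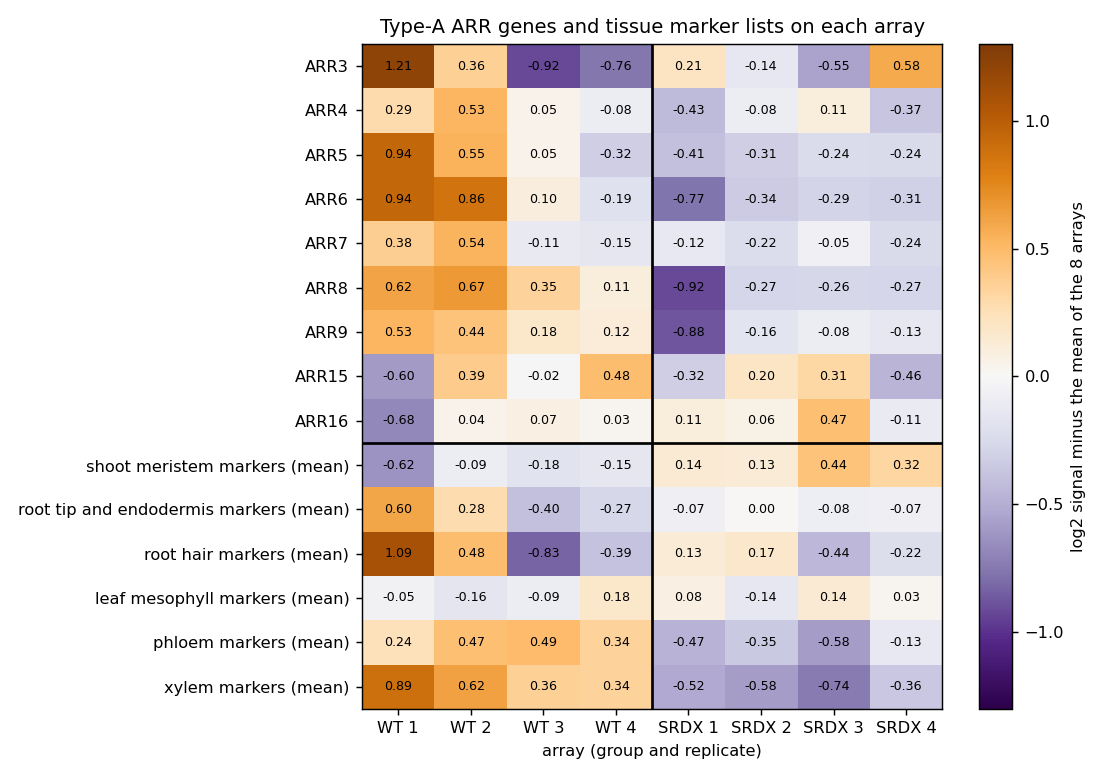
Each row is a tested type-A ARR gene or the mean of a tissue marker list, each column an array, and colour and number give the log2 signal minus the mean of the 8 arrays. ARR5, ARR6 and the root hair markers are highest in wild type replicates 1 and 2. Xylem and phloem markers separate the groups on all arrays, while ARR8 and ARR9 are lowest in MYB87-SRDX replicate 1.

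The rest of the pathway was covered by 71 genes in 10 lists, of which 58 were tested. Of these 8 were lower, or 13.8%, which is near the 12.5% of all loci, and none was higher, against 14.9% of all loci. At an unadjusted p below 0.05 there were 15 lower (25.9%) and 2 higher (3.45%), against the same 19% and 22.2% of all loci. The 2 were CKX3 and IPT1, named after their values were seen. The median log2 difference was -0.12. The alternatives gave 2 to 12 lower and 0 to 3 higher, with 2 lower without wild type replicate 2, 5 without wild type replicate 3, and 3, 4 and 5 without MYB87-SRDX replicates 1, 2 and 4.

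Upstream of the response regulators, 2 of the 3 cytokinin receptors tested fell, AHK4 and AHK3 (66.7%, against 12.5% of all loci). AHK4 (AT2G01830), the receptor needed for root vascular patterning, had log2 signals of 1.19, 0.84, 0.42 and 0.40 in wild type and 0.09, 0.09, 0.12 and 0.15 in MYB87-SRDX. The wild-type arrays ran in the order of ARR5, and the MYB87-SRDX arrays were nearly identical and below all of them. AHK4 thus differed by -0.60 ± 0.17 (SE) on the log2 scale, for which limma gave an adjusted p of 0.0344. AHK3 (AT1G27320), a receptor with a large part in leaves, had 1.40, 1.47, 1.67 and 1.37 in wild type and 1.15, 1.33, 1.10 and 1.19 in MYB87-SRDX. AHK3 differed by -0.29 ± 0.09 (SE), with 0.0455 as its limma adjusted p, a small change between groups that did not overlap. AHK2 had -0.11 ± 0.11 (SE) and an adjusted p of 0.494. The AHK4 call was lost without wild type replicate 2 or any one MYB87-SRDX array, with adjusted p values from 0.064 to 0.0924. No filter on dim probes (limma adjusted p 0.0505) and the replicate block (0.0666) also lost the AHK4 call. AHK3 lost its call in 10 of 19 alternatives, among them those without wild type replicate 2 or 3 or MYB87-SRDX replicate 1, 3 or 4.

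Of the phosphotransfer proteins, AHP3 fell by 0.25 ± 0.07 (SE) on the log2 scale, with a limma adjusted p of 0.0329, and the other 4 tested did not pass. AHP3 makes up 20% of those tested, against 12.5% of all loci lower. The AHP3 call was lost in 8 of 19 alternatives, among them those without wild type replicate 1, 2 or 3 or MYB87-SRDX replicate 1 or 2, and its log2 difference was -0.16 with median scaling. AHP6, an inhibitor that lacks the phosphate-accepting histidine, stayed at background throughout. None of the 6 type-B ARRs tested passed the limma test, and their median log2 difference was -0.06. At an unadjusted p below 0.05 there was 1, ARR2, with a difference of -0.40 ± 0.13 (SE) and an adjusted p of 0.0577. ARR2 passed in 3 of 19 alternatives, with 0.0499 with an added offset, 0.0228 without wild type replicate 4 and 0.037 without MYB87-SRDX replicate 2. The other 5 type-B genes were not well above background on any array. None of the 4 KMD F-box genes, which target type-B ARRs for degradation, passed, also without adjustment, and the groups overlapped for each. All 4 had positive differences with a median of 0.36, whereas 48.5% of all loci had negative ones. Their direction is not read as a change. The type-C genes ARR22 and ARR24 were not tested, since each was well above background on 1 array.

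Among hormone synthesis genes, 2 of 14 tested fell (14.3%, near the 12.5% of all loci). None rose, against 14.9% of all loci. LOG5 and LOG3, which release active cytokinin bases from their nucleotides, were 2.26-fold and 2.07-fold lower. LOG5 had log2 signals of -4.13, -3.59, -3.70 and -4.0 in wild type and -5.48, -5.19, -5.01 and -4.47 in MYB87-SRDX, with a limma adjusted p of 0.00808. Its groups did not overlap, and its call held in all 19 alternatives, though its log2 difference was -0.65 with normexp and -0.68 with an added offset against -1.18. LOG3 had an adjusted p of 0.0197 and a log2 difference of -0.35 with normexp and -0.44 with an added offset against -1.05, and its call was lost without wild type replicate 2 or MYB87-SRDX replicate 2, with 0.0591 as its highest adjusted p. At an unadjusted p below 0.05, 4 of the 14 were lower (28.6%) and 1 higher (7.14%), against 19% and 22.2% of all loci. The higher one was IPT1, an isopentenyltransferase, well above background on no wild-type array and on 3 MYB87-SRDX arrays. Its groups overlapped, its limma adjusted p was 0.0924, and it passed in 3 of the 15 alternatives that tested it.

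Of the 9 breakdown and conjugation genes tested, CKX4, a cytokinin oxidase that cytokinin itself induces, was 1.89-fold lower, with a limma adjusted p of 0.0266. CKX4 was the only one called (11.1%, near the 12.5% of all loci lower). Its log2 signal was -1.20, -1.42, -2.17 and -2.12 in wild type and -2.87, -2.73, -2.66 and -2.32 in MYB87-SRDX. As in ARR6, wild type replicates 1 and 2 were the highest arrays and all MYB87-SRDX arrays lay below wild type. Its call was lost without wild type replicate 2 or MYB87-SRDX replicate 1, 2 or 3, with adjusted p values from 0.0533 to 0.0753. CKX3, another cytokinin oxidase, had a difference of 1.23 ± 0.42 (SE) and an adjusted p of 0.0631, which passed in 4 of 19 alternatives, such as without MYB87-SRDX replicate 4, where it was 1.54. It was 0.53 with normexp and 0.69 with an added offset.

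Among other genes that cytokinin induces, LBD3, a LOB-domain transcription factor, was 2.47-fold lower in MYB87-SRDX, with a limma adjusted p of 0.0144. Its log2 signal was -2.13, -2.69, -3.49 and -3.15 in wild type and -4.54, -4.12, -4.14 and -3.88 in MYB87-SRDX, without overlap. The other 4 genes of that list did not pass, so 20% were lower, against 12.5% of all loci. None of the 6 cytokinin response factors, AP2-type transcription factors of the same pathway, passed, with 1 at an unadjusted p below 0.05, and their median log2 difference was -0.12. Of 6 transport genes 1 was lower (16.7%, against 12.5% of all loci), PUP1, a purine permease. PUP1 fell by 1.57-fold, and limma gave an adjusted p of 0.0383. Its groups overlapped, and its call was lost in 9 of 19 alternatives, including without wild type replicate 2, 3 or 4 or MYB87-SRDX replicate 1, 2 or 4.

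**Figure D4:**
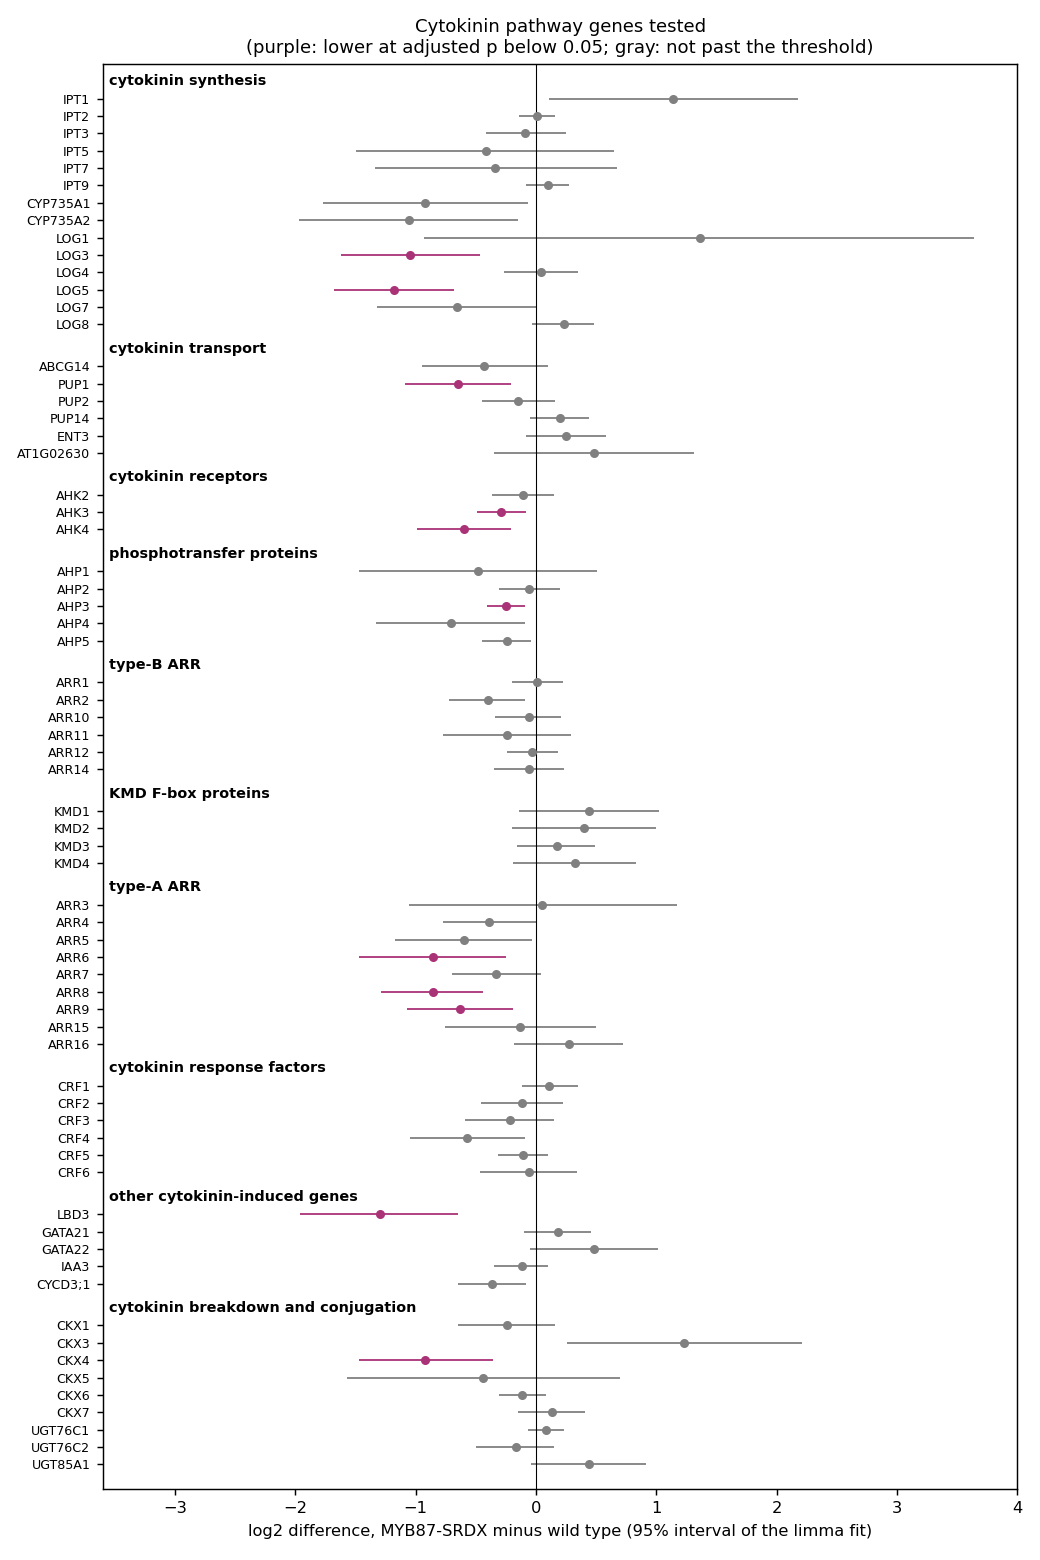
The x axis gives the log2 difference of MYB87-SRDX from wild type, with bars for 95% intervals of the limma fit, for the 9 type-A ARR genes and the 58 other cytokinin genes tested, grouped by role. Purple marks an adjusted p below 0.05. All 11 purple points lie to the left of 0.

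The genes whose deviations from the group means over the 8 arrays were most like those of ARR8, the member with the largest difference, were AT2G30540, IAA5 and AT2G32150, with Pearson r of 0.971, 0.966 and 0.964 among 19451 loci. IAA5 is an Aux/IAA repressor of auxin response. Its log2 signal was -2.73, -2.72, -2.90 and -3.02 in wild type and -3.72, -3.42, -3.44 and -3.32 in MYB87-SRDX. IAA5 was lower on every MYB87-SRDX array, by 0.63 on the mean, with a limma adjusted p of 0.0064 and a call that held in all 19 alternatives, though the difference was -0.38 with normexp. AT2G30540 had a difference of -0.60 (-0.33 with normexp) and an adjusted p of 0.0317, lost in 8 of 19 alternatives, among them each of the fits without wild type replicate 1, 2 or 3 or MYB87-SRDX replicate 2 or 4. AT2G32150 had -0.25 and 0.20. The r values describe 8 arrays and were the highest of many, so they carry no test.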

How the data were processed

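Per the submitters' processing notes, the software behind the spot values was Agilent Feature Extraction 9.1.3.1. The deposited scanner tables hold spot intensity on a linear scale, and the processed signal, background-subtracted by that software, was used. The authors' deposited value table holds the same intensity times a constant (0.001094 for wild type, 0.001175 for MYB87-SRDX), with column medians of 0.105 to 0.15. The sources used here do not say why the constants differ.

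From 37685 non-control spots per array, outlier-flagged spots were set to missing, log2 signals were reduced by the array's 75th percentile, and replicate spots were averaged by probe. Probes called well above background on 3 or more arrays in either group entered the tests. A locus was represented by the brightest of these, which left 20334 of 25665 loci. Differences were fitted with limma 3.58.1 (lmFit, eBayes; R 4.3.3), with Benjamini-Hochberg adjustment over all loci and a threshold of 0.05. Intervals are 95% intervals of that fit. The fit was tested on simulated data with each locus's own spread. It recovered 41.8% of changes of 0.5 log2, 77.6% of 1 log2 and 87.9% of 2 log2, with 13 false calls. Changes were put into 67, 67 and 66 loci, far fewer than were called in the data. Per-array values are given for replicates 1 to 4 in that order.

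The members, lists and rules were chosen with earlier results of these data known. The rule for named genes takes MYB87, the 10 members, all receptors, up to 2 rises and 2 falls past the threshold in each pathway list, and the 3 loci most like the member with the largest called difference. IPT1, CKX3, ARR2, STM, CUC1, KNAT2 and SHR are named outside that rule, after their values were seen. Of the array's loci, 25449 were found in the RefSeq gene table (TAIR10.1). Normexp was run on the median signal, since the tables used hold no mean signal, and without spots whose local background exceeded 2 times the array's median. Probe, promoter and protein sequences were not used here, so cross-hybridisation between related members was not tested. The labels do not pair the samples by replicate number. Deviations of same-numbered arrays correlated at 0.095, 0.09, 0.154 and -0.223 across genes, which does not decide whether the numbers pair them. The alternatives were quantile and median scaling, normexp, an added offset of 50, the authors' deposited values, no filter, a stricter filter, probe means, a trended eBayes, array weights, the replicate number as a block and the omission of each array.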

Additional observations from a re-analysis of the deposited data

Results flagged for a closer look

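In 5 of the 58 groups of 4 arrays tested (each named gene in each group), 1 array lay far from the other 3 by Dixon's criterion, which chance meets in about 1 of 20 groups. In MYB87-SRDX replicate 1, ARR6 was at -2.95 with the nearest other array at -2.52, ARR8 at -2.99 with -2.35, and ARR9 at -0.64 with 0.08. The 3 type-A ARR genes that fell therefore share their lowest array. Wild type replicate 1 had ARR16 at -3.74, with the nearest other array at -3.03. MYB87-SRDX replicate 4 had MYB87 at 2.53, with 5.52 as the nearest, and its ARR6, ARR8 and ARR9 values lay within the range of replicates 2 and 3.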

How the results depend on the processing

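The 19 alternatives comprised 11 settings and the omission of each of the 8 arrays. For the members, each with 1 probe, probe means and the deposited values gave nearly the same differences by construction. No filter and the stricter filter left the members' values as they were and changed only the loci fitted beside them. The count of lower type-A ARR genes, 3 as reported, was 1 with no filter on dim probes and 1 with the replicate block, and ran from 1 to 4 over the omissions. No member was higher in any alternative. The median over members ran from -0.28 to -0.49 over the omissions. Of the other cytokinin genes, 0 higher and 8 lower as reported, median scaling gave 2 and 5, normexp 1 higher, an added offset of 50 gave 1 higher, array weights 3 higher, no filter 5 lower and the replicate block 2 lower. Over the omissions they ran from 0 to 3 higher and from 2 to 9 lower. Over all loci, median scaling gave 1371 lower against 2550, moved the median of all loci from 0.011 to 0.103 and gave 65.8% of calls higher against 54.3%. The replicate block gave 1772 higher against 3031. The labels do not pair the samples by number, though 2 of 4 wild-type arrays correlated best with the same number in the other group. The omissions gave 1545 to 3053 higher and 1366 to 2907 lower, with 1545 and 1366 without wild type replicate 2, 1714 and 1518 without MYB87-SRDX replicate 1, and 1903 higher without wild type replicate 3. The uncalled ARR3 turned sign with normexp (-0.02) and without wild type replicate 3 (-0.24) or 4 (-0.19) or MYB87-SRDX replicate 1 (-0.01) or 4 (-0.13), with a highest value of 0.47 without wild type replicate 1. The uncalled ARR15 became 0.01 without wild type replicate 4 and 0.00 without MYB87-SRDX replicate 4, and was lowest, at -0.35, without wild type replicate 1. With the replicate block ARR6 and ARR9 had adjusted p values of 0.0989 and 0.104, AHK4 and AHK3 0.0666 and 0.102, AHP3 0.0998, CKX4 0.0763, LBD3 0.0519, PUP1 0.0577, AT2G30540 0.0739 and KNAT2 0.0503, all calls lost. The causes were not tested. Dim probes, such as ARR17, have no measured difference.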
